A study of Mus musculus with 3 samples.

Results

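The genes described here are *Fgf5* and 6 transcription factor genes, *Otx2*, *Pou3f1*, *Zic2*, *Sox3*, *Foxd3* and *Sox4*, that are known as marks of the primed epiblast. They were found by their gene names among the probes of the arrays, and the 7 genes have 10 probes, of 35019 genes and 55681 probes in all. RNA of male mouse embryonic stem (ES) cells was measured on 9 Agilent one-colour arrays, 3 for each of 3 groups. *Nr0b1* KO/Y ES cells had been established as cells that lack *Nr0b1* (also called *Dax1*), a gene for an orphan nuclear receptor that acts mostly as a corepressor. *Nr0b1* fl-/Y +Tx ES cells carried the floxed allele and were taken after 4 days of deletion with 4-hydroxy tamoxifen (Tx). *Nr0b1* fl-/Y −Tx ES cells carried the same floxed allele and had not been given Tx. All 3 groups come from EB5 ES cells with 1 X chromosome and express the hormone-inducible recombinase MerCreMer and *Egfp* constitutively from piggyBac vectors, so +Tx and −Tx cells differ in Tx and in active recombinase as well as in *Nr0b1*, and these cannot be told apart. The paper describes KO/Y lines as colonies isolated after floxed cells were given Tx and replated as single cells. So KO/Y cells also differ from −Tx cells in past Tx, past recombinase activity and a further isolation of clones. These cannot be told apart from the loss of *Nr0b1* either. Neither the clone on each array nor the presence of feeder fibroblasts is stated for these samples. The comparisons address whether ES cells that lose *Nr0b1* move toward the primed state of pluripotency.

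Mouse ES cells resemble the naive epiblast of the blastocyst, whose identity rests on factors such as Klf2, Klf4, Esrrb and Tfcp2l1. After implantation the epiblast passes through a formative into a primed state, in which these factors fade, Fgf5 and Otx2 come up, and the cells become ready to form germ layers. Otx2 is a homeodomain protein that, together with Oct3/4, opens enhancers of the primed state, and Pou3f1 (Oct6) is a POU factor that rises early on this path. Zic2, Sox3, Foxd3 and Sox4 belong to the zinc finger, SoxB1, forkhead and SoxC families and are used again in the early nervous system and neural crest.

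The regions just upstream of the transcription start are shown for *Fgf5*, *Otx2* and *Foxd3* because these genes stand for the patterns described below: *Fgf5* was higher only on KO/Y arrays, *Otx2* was higher on KO/Y and +Tx arrays, and *Foxd3* was higher on +Tx arrays. Each is the 250 bases before an annotated start site of the RefSeq annotation, on build GRCm38.p6, in the 5′ to 3′ direction of the gene, and 4 of the 7 genes were matched to this table (*Sox4* being the other one). Searched on both strands were AAGGTCA, bound by orphan nuclear receptors such as Nr5a2 and Esrrb, TAATCC, bound by Otx2, the octamer ATTTGCAT of POU factors, and ACAAT, the core of Sox sites. Capitals mark matches.
*Fgf5*, chr5:98253934-98254183, plus strand: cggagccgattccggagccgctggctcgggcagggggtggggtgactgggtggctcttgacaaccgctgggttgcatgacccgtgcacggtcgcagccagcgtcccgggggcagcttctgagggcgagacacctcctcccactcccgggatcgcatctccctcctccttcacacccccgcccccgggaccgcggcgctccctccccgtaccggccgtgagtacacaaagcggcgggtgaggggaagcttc
*Otx2*, start site 1, chr14:48667645-48667894, minus strand: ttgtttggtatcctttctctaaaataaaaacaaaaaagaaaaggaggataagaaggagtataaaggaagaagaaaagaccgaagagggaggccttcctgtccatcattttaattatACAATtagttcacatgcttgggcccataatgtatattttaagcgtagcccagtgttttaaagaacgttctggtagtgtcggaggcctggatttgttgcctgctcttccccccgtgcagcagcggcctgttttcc
*Otx2*, start site 3, chr14:48665110-48665359, minus strand: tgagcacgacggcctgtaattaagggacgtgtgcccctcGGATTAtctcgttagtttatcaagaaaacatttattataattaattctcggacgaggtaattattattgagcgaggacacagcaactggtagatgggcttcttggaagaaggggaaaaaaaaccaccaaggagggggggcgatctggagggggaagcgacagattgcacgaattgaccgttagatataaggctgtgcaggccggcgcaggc
*Foxd3*, chr4:99656049-99656298, plus strand: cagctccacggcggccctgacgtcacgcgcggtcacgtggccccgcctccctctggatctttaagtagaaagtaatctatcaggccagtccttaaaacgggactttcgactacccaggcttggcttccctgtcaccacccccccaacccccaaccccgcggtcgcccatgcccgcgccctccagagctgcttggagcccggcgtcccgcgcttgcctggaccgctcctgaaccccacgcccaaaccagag

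Of the 4 annotated *Otx2* start sites, site 1 holds ACAAT 134 bases upstream, site 3 holds TAATCC on the opposite strand 211 bases upstream (in capitals as GGATTA), site 4 holds ACAAT on the opposite strand 208 bases upstream, and site 2 holds none of the 4 motifs. No match lies in the windows of *Fgf5*, *Foxd3* and *Sox4*. Over the 32851 windows of the same length in this annotation, AAGGTCA is found in 4.08%, TAATCC in 6.25%, ATTTGCAT in 1.6% and ACAAT in 27.7%. These matches describe letters, and binding was not measured.

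The deleted gene was lowest in KO/Y cells. On a log2 scale relative to the 75th percentile of each array, *Nr0b1* read −6.37, −6.20 and −6.22 on KO/Y arrays, where it was not well above background, −2.58, −2.66 and −2.42 on +Tx arrays, and 4.02, 4.18 and 4.10 on −Tx arrays. It was 101-fold lower in +Tx than in −Tx cells, and in KO/Y cells at least 322-fold lower than in −Tx cells, a bound set by the weakest signal still above background. Whether its probe lies in the deleted exon was not determined. Between 51.8% and 58.4% of probes were well above background on an array, and after removal of dim probes 22441 genes were tested with limma, the 7 primed genes among them, all of which were well above background on all 9 arrays. The +Tx arrays lie on 2 slides, 1 beside the −Tx arrays and 2 beside the KO/Y arrays, and KO/Y and −Tx arrays share no slide, so in that comparison slide and group are told apart only through the +Tx arrays. A level of 1 gene cannot be set against that of another on these arrays, and each fold change below is a difference within a gene. Signals of different genes and sums over gene lists, where given, describe probe signal and do not rank genes by amount of RNA.

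None of the 7 genes reached a 2-fold difference with an adjusted p under 0.05 in any comparison, by limma. Their largest difference was 1.74-fold between KO/Y and −Tx cells, 1.71-fold between +Tx and −Tx cells and 1.62-fold between KO/Y and +Tx cells. For all 22441 genes, the share past both limits was 4.72% higher and 2.84% lower in KO/Y over −Tx cells, 1.75% higher and 0.762% lower in +Tx over −Tx cells, and 2.37% higher and 1.05% lower in KO/Y over +Tx cells. These shares are also the background for the 2-fold counts of the gene lists below. With the adjusted p alone, the 7 genes did not move one way. Against −Tx cells, KO/Y cells had 2 that rose, 3 that fell and 2 that did not pass (all genes: 20.5% higher, 26.4% lower). The +Tx cells had 3 that rose over −Tx cells, 1 that fell and 3 that did not pass (all genes: 11.9% higher, 14.7% lower). Between KO/Y and +Tx cells 1 rose, 3 fell and 3 did not pass (all genes: 12.1% higher, 14.1% lower). At an unadjusted p under 0.05 the counts were 2 higher and 3 lower, 4 higher and 1 lower, and 1 higher and 4 lower for these comparisons. The median log2 fold change of the 7 genes was −0.029, 0.15 and −0.18, beside −0.063, −0.064 and 0.008 over all genes. The comparisons share arrays: each −Tx array enters both of those against −Tx cells, so the values of a gene in them are not independent.

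**Figure D1:**
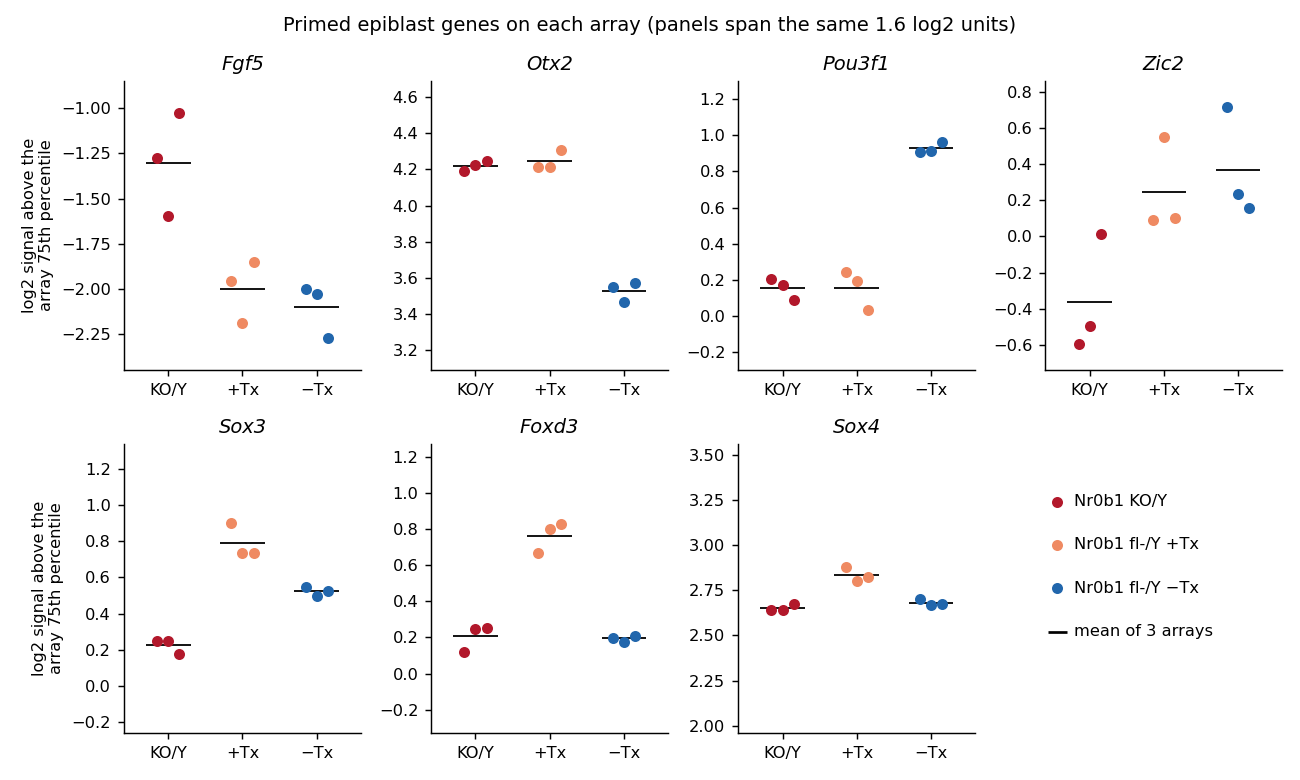
Log2 signal above the 75th percentile of the array for each of the 7 genes, with 1 point per array and a line at the mean of the 3 arrays of a group. *Otx2* and *Pou3f1* separate the −Tx arrays from the rest, *Foxd3* and *Sox3* are highest on the +Tx arrays, and *Fgf5* is highest on the KO/Y arrays.

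**Figure D2:**
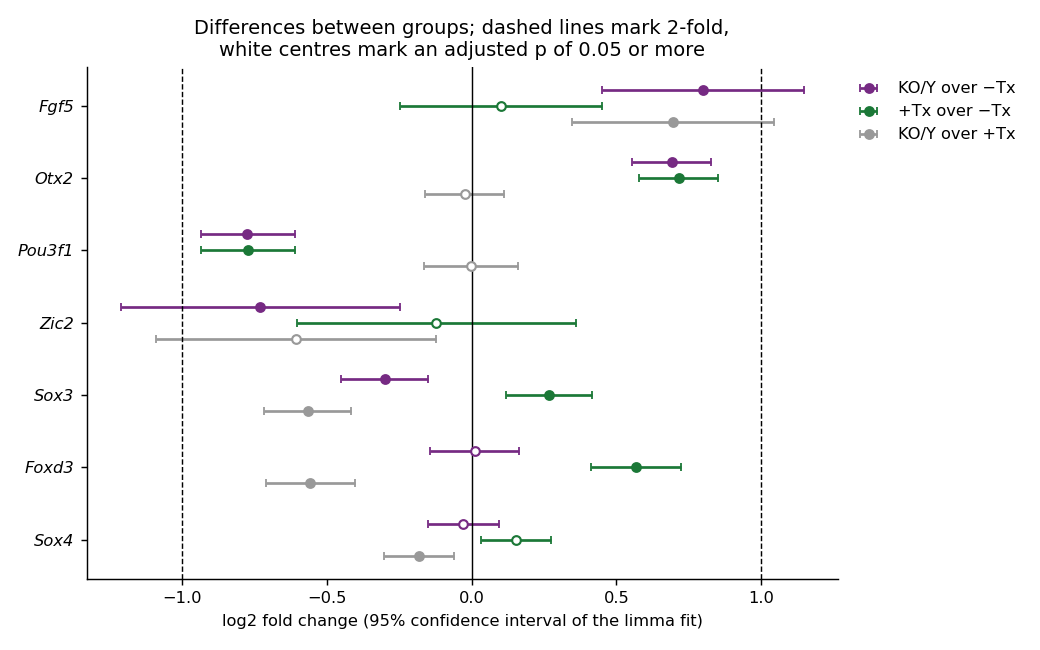
Log2 fold change of each gene in the 3 comparisons, with its 95% confidence interval from the limma fit. No point reaches the dashed lines at 2-fold, and the KO/Y over +Tx values of *Otx2* and *Pou3f1* lie near 0.

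*Fgf5*, a secreted ligand of the fibroblast growth factor family and the classical mark of the postimplantation epiblast, rose in KO/Y cells over both other groups. Its probe lies at chr5:98705980-98706039 (mm9, as for all probe positions here). The log2 signal was −1.28, −1.60 and −1.03 on KO/Y arrays, −1.96, −2.19 and −1.85 on +Tx arrays, and −2.00, −2.03 and −2.27 on −Tx arrays. All KO/Y arrays were above all others, and +Tx and −Tx arrays overlapped. *Fgf5* was 1.74-fold higher in KO/Y than in −Tx cells (log2 fold change 0.80, SE 0.15, adjusted p = 0.00266) and 1.62-fold higher than in +Tx cells (0.70, SE 0.15, adjusted p = 0.0109). The +Tx over −Tx difference was 0.10 with a 95% interval of −0.25 to 0.45 (adjusted p = 0.657). The processed intensities behind these values were low, 114 to 199.7 on KO/Y, 78.3 to 129.8 on +Tx and 78.7 to 95.5 on −Tx arrays, and with normexp background correction, which adds an offset, the KO/Y over −Tx difference was 0.50 (adjusted p = 0.0013). With slide as a block it was 0.86 (adjusted p = 0.0729), and on the slide that KO/Y and +Tx arrays share their difference was 0.72 (adjusted p = 0.0649), so both calls were lost there, while the KO/Y over +Tx call was kept with slide as a block (0.72, adjusted p = 0.0289).

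In bulk RNA a change in the share of cells of a type and a change in RNA per cell cannot be told apart. Markers of other cell types also differed between the groups, some of them between +Tx and −Tx cells, where *Fgf5* did not pass. Of all genes, 4.72% rose and 2.84% fell over 2-fold in KO/Y over −Tx cells, and 1.75% rose and 0.762% fell in +Tx over −Tx cells. At the adjusted p alone 20.5% and 11.9% rose, and 26.4% and 14.7% fell. Of 13 primitive endoderm genes, such as *Gata4*, *Gata6* and *Sox17*, 11 rose over 2-fold in KO/Y over −Tx cells and 0 in +Tx over −Tx cells. At the adjusted p alone all 13 rose in KO/Y over −Tx cells, and 5 rose and 1 fell in +Tx over −Tx cells. Their summed linear level, in units of the 75th percentile of the array, was 74.1 to 108 on KO/Y, 35.3 to 43.2 on +Tx and 28.2 to 28.5 on −Tx arrays, and *Sox17* was not well above background on any +Tx or −Tx array. Such sums, here and for the lists below, follow the probes with the strongest signal and do not measure the amount of a cell type. On KO/Y arrays *Lama1* and *Lamb1* had a mean log2 signal of 4.94 and 4.86. The means of *Gata4*, *Gata6* and *Sox17* were −0.854, −0.49 and −1.725. Of 7 mesendoderm genes tested out of 9, 4 rose over 2-fold in KO/Y over −Tx cells (*T*, *Gsc*, *Foxa2*, *Cer1*), with sums of 2.71 to 2.77 on KO/Y, 1.54 to 1.69 on +Tx and 1.40 to 1.50 on −Tx arrays, while *Mixl1* and *Mesp1* were on no array well above background. In +Tx over −Tx cells *Foxa2* was 2.59-fold lower (adjusted p = 0.00226), and no mesendoderm gene rose over 2-fold. All 14 fibroblast genes were higher in KO/Y than in −Tx cells past the adjusted p, 1 of them over 2-fold, and 8 in +Tx over −Tx cells. Their sums were 716 to 746 on KO/Y, 617 to 648 on +Tx and 498 to 526 on −Tx arrays, and all 14 were well above background on every array. Trophectoderm genes summed to 19.7 to 21.2 on KO/Y, 5.94 to 6.33 on +Tx and 11.9 to 12.3 on −Tx arrays, with 4 of 6 tested (7 listed) over 2-fold higher and 1 lower in KO/Y over −Tx cells, and *Elf5* on no array well above background. *Tfap2c*, which had the strongest signal of this list on −Tx arrays (mean log2 2.79), was 3.90-fold lower in +Tx than in −Tx cells (adjusted p = 2.93e-07). *Hand1* was at least 2.49-fold higher there (adjusted p = 0.000177). The part of these cell types in the values of *Fgf5* and the other genes was not tested. The 8 ES cell markers, *Pou5f1*, *Sox2* and *Nanog* among them, were well above background on every array. Their sums were 99.2 to 112 on KO/Y, 125 to 133 on +Tx and 135 to 137 on −Tx arrays. None of the 8 passed the 2-fold limit in KO/Y or +Tx over −Tx cells. At the adjusted p alone 0 rose and 4 fell in KO/Y over −Tx cells, with a median log2 fold change of −0.38. In +Tx over −Tx cells 0 rose and 0 fell, with a median of −0.12.

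*Otx2* rose in KO/Y and in +Tx cells by about the same amount. Its brighter probe, at chr14:49277855-49277914, read 4.19, 4.22 and 4.25 on KO/Y arrays, 4.21, 4.21 and 4.31 on +Tx arrays, and 3.55, 3.47 and 3.57 on −Tx arrays. No KO/Y or +Tx array overlapped a −Tx array. The level was 1.61-fold higher in KO/Y (log2 fold change 0.69, SE 0.06, adjusted p = 3.54e-05) and 1.64-fold higher in +Tx (0.72, SE 0.06, adjusted p = 0.000105) than in −Tx cells. Between KO/Y and +Tx cells the difference was −0.024, with a 95% interval of −0.16 to 0.11 (adjusted p = 0.803). Both calls against −Tx cells held in the alternatives that tested this gene for any difference (19 for KO/Y and 20 for +Tx cells), each array left out included, with the slide as a block at 0.64 (adjusted p = 0.00832) for KO/Y and 0.68 (adjusted p = 0.00452) for +Tx cells.

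The other *Otx2* probe did not show this. It lies at chr14:49284952-49285011, and the span from end to end of the 2 probes is 7157 bases. The array annotation assigns it to an Ensembl transcript rather than to the RefSeq transcript of the brighter probe. It read −0.59, −0.32 and −0.45 on KO/Y arrays, −0.42, −0.47 and −0.71 on +Tx arrays, and −0.46, −0.46 and −0.62 on −Tx arrays, and all 3 groups overlapped. With each probe tested on its own by limma, its log2 fold change was 0.063 in KO/Y over −Tx cells (95% interval −0.18 to 0.30, adjusted p = 0.667) and −0.017 in +Tx over −Tx cells (−0.26 to 0.22, adjusted p = 0.925). These intervals do not reach the values of the brighter probe. With the mean of both probes standing for the gene, the differences were 0.38 for KO/Y and 0.35 for +Tx over −Tx cells.

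**Figure D3:**
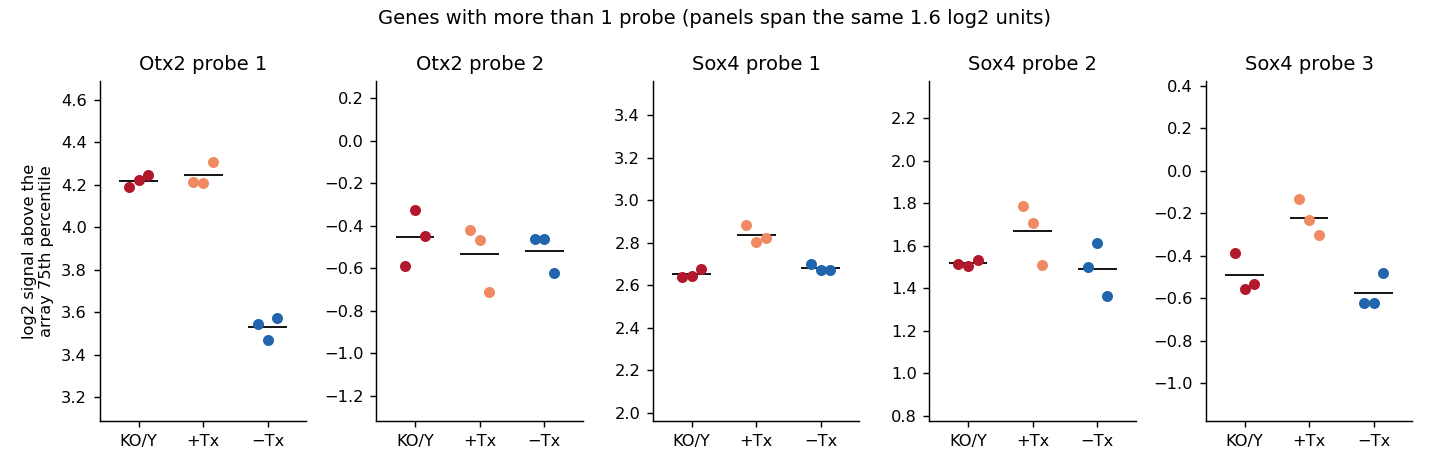
Log2 signal above the 75th percentile of the array for the 2 probes of *Otx2* and the 3 probes of *Sox4*, with 1 point per array and a line at the group mean. The −Tx arrays lie below the KO/Y and +Tx arrays for *Otx2* probe 1 and among them for probe 2, and the +Tx mean is the highest for each *Sox4* probe.

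*Pou3f1* moved against *Otx2*: it fell in both groups with the deletion. Its probe, at chr4:124337692-124337751, read 0.21, 0.17 and 0.09 on KO/Y arrays, 0.25, 0.19 and 0.04 on +Tx arrays, and 0.91, 0.91 and 0.97 on −Tx arrays. The −Tx arrays lay above all others, and KO/Y and +Tx arrays overlapped. The level was 1.71-fold lower in KO/Y than in −Tx cells (log2 fold change −0.78, SE 0.07, adjusted p = 4.9e-05) and 1.71-fold lower in +Tx than in −Tx cells (−0.77, SE 0.07, adjusted p = 0.00018). The KO/Y over +Tx difference was −0.003, with an interval of −0.17 to 0.16 (adjusted p = 0.978). Both falls passed in the alternatives that tested this gene for any difference (19 for KO/Y and 20 for +Tx cells), and over these and the authors' table the value ranged over −0.80 to −0.64 in KO/Y and −0.82 to −0.68 in +Tx over −Tx cells.

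*Foxd3*, a forkhead repressor of the pluripotent epiblast and later of neural crest, rose in +Tx cells, and its KO/Y and −Tx arrays overlapped. Its probe, at chr4:99325170-99325229, read 0.12, 0.25 and 0.25 on KO/Y arrays, 0.67, 0.80 and 0.83 on +Tx arrays, and 0.20, 0.18 and 0.21 on −Tx arrays. The +Tx arrays lay above all others, and KO/Y arrays spread on both sides of the −Tx arrays. *Foxd3* was 1.48-fold higher in +Tx than in −Tx cells (log2 fold change 0.57, SE 0.07, adjusted p = 0.000679), and 1.47-fold lower in KO/Y than in +Tx cells (−0.56, SE 0.07, adjusted p = 0.000594). For KO/Y over −Tx cells the difference was 0.011 with a 95% interval of −0.14 to 0.17 (adjusted p = 0.915).

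*Sox3*, a SoxB1 gene on the X chromosome that acts alongside *Sox2* in epiblast and neural progenitors, rose in +Tx cells and fell in KO/Y cells. Its probe, at chrX:58144564-58144623, read 0.25, 0.25 and 0.18 on KO/Y arrays, 0.90, 0.74 and 0.74 on +Tx arrays, and 0.55, 0.50 and 0.53 on −Tx arrays. The 3 groups did not overlap. *Sox3* was 1.20-fold higher in +Tx than in −Tx cells (log2 fold change 0.27, SE 0.07, adjusted p = 0.0185) and 1.23-fold lower in KO/Y than in −Tx cells (−0.30, SE 0.07, adjusted p = 0.00536). The KO/Y over +Tx difference was −0.57 (SE 0.07, adjusted p = 0.000459), 1.48-fold lower, and it passed in the 20 alternatives with a test. The +Tx call was lost in 5 of 20 alternatives, among them without +Tx array 1 (0.21, adjusted p = 0.056), without −Tx array 2 (0.26, adjusted p = 0.0689) or 3 (0.27, adjusted p = 0.0572), and the KO/Y over −Tx call with slide as a block (−0.13, adjusted p = 0.424).

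*Sox4*, a SoxC gene of progenitor and mesenchymal cells, showed small differences, with the same order of group means as *Sox3* at its brightest probe only. At its other probes the KO/Y mean was above the −Tx mean, by 0.026 (adjusted p = 0.849) and 0.084 (adjusted p = 0.434). Its brightest probe, at chr13:29040826-29040885, read 2.64, 2.64 and 2.67 on KO/Y arrays, 2.88, 2.80 and 2.82 on +Tx arrays, and 2.70, 2.67 and 2.67 on −Tx arrays. The +Tx arrays lay above all others, and KO/Y and −Tx arrays overlapped. The KO/Y over +Tx difference of −0.18 (SE 0.05, 1.13-fold lower) passed with an adjusted p of 0.0362 and lost the call in 13 of 20 alternatives, the omission of each of the 9 arrays among them, and over all 20 its adjusted p ranged from 0.0164 to 0.285. The +Tx over −Tx difference was 0.15 (95% interval 0.03 to 0.28, adjusted p = 0.0654) and the KO/Y over −Tx difference was −0.029 (−0.15 to 0.09, adjusted p = 0.7). Of its other probes, the one at chr13:29044482-29044541 read −0.39, −0.56 and −0.54 on KO/Y, −0.13, −0.23 and −0.30 on +Tx and −0.62, −0.62 and −0.48 on −Tx arrays, with +Tx over −Tx at 0.36 (adjusted p = 0.0141) and KO/Y over +Tx at −0.27 (adjusted p = 0.0378). The one at chr13:29042856-29042915 read 1.52, 1.50 and 1.53 on KO/Y, 1.79, 1.71 and 1.51 on +Tx and 1.50, 1.61 and 1.36 on −Tx arrays and passed in no comparison, with differences of 0.18 in +Tx over −Tx (adjusted p = 0.205) and −0.15 in KO/Y over +Tx cells (adjusted p = 0.282).

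*Zic2*, a zinc finger factor that binds enhancers of the primed state, was lower in KO/Y than in −Tx cells and had, of the 7 genes, the widest spread between the arrays of a group. Its probe, at chr14:122879296-122879355, read −0.60, −0.50 and 0.011 on KO/Y arrays, 0.09, 0.55 and 0.10 on +Tx arrays, and 0.72, 0.24 and 0.16 on −Tx arrays. The KO/Y arrays lay below all others, although KO/Y array 3 was near the lowest +Tx array, and +Tx and −Tx arrays overlapped. *Zic2* was 1.66-fold lower in KO/Y than in −Tx cells (log2 fold change −0.73, SE 0.21, adjusted p = 0.0202). This call was lost without KO/Y array 1 (−0.61, adjusted p = 0.0748) or 2 (−0.66, adjusted p = 0.0629), without −Tx array 1 (−0.56, adjusted p = 0.0668) and with slide as a block (−0.97, adjusted p = 0.123). The KO/Y over +Tx difference was −0.61 (SE 0.21, adjusted p = 0.0662), and without KO/Y array 3 it was −0.79 with an adjusted p of 0.0301. In +Tx over −Tx cells the difference was −0.12, with an interval of −0.61 to 0.36 (adjusted p = 0.704).

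The other genes of the epiblast moved mostly down in KO/Y cells. Of 18 further genes listed as formative or primed epiblast genes, 17 were tested, and *Wnt8a* was too dim. Of these, 0 rose and 4 fell over 2-fold in KO/Y over −Tx cells, and with the adjusted p alone 2 rose and 9 fell (all genes: 20.5% higher, 26.4% lower), with a median log2 fold change of −0.41. *Zic5*, a neighbour of *Zic2* in its gene family, fell 3.22-fold (log2 fold change −1.69, SE 0.06, adjusted p = 2.23e-07), *Lef1*, a transcription factor of Wnt signalling, fell 2.56-fold (−1.36, SE 0.09, adjusted p = 7.22e-06), *Fgf15*, a secreted Fgf, fell 2.24-fold (−1.16, SE 0.23, adjusted p = 0.00299), and *Tcf15*, a helix-loop-helix factor of cells primed to leave the naive state, fell 2.09-fold (−1.07, SE 0.07, adjusted p = 5.71e-06). *Fgf15* lost its 2-fold call with normexp correction, with slide as a block and without KO/Y array 3, and *Tcf15* lost its own with quantile normalization. In a test against a fold of 2 only *Zic5* of these genes was called. *Dnmt3b*, a de novo DNA methyltransferase, read −0.62 (adjusted p = 0.000433), while *Dnmt3a* at 0.49 (adjusted p = 0.00458) and *Nodal*, a ligand of the TGF-beta family, at 0.37 (adjusted p = 0.00103) were the 2 that rose.

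After 4 days with Tx, 0 of these 17 genes passed the 2-fold limit over −Tx cells by limma, with 1 higher and 4 lower at the adjusted p (all genes: 11.9% higher, 14.7% lower) and a median of −0.11. *Nodal* rose (0.52, adjusted p = 0.000532), and *Dnmt3b* (−0.64, adjusted p = 0.00116), *Zic5* (−0.48, adjusted p = 0.00103), *Lef1* (−0.38, adjusted p = 0.0147) and *Tcf15* (−0.21, adjusted p = 0.0454) fell. Set against +Tx cells, KO/Y cells had 0 genes that rose and 2 that fell over 2-fold, *Zic5* (−1.21, adjusted p = 8.03e-06) and *Fgf15* (−1.05, adjusted p = 0.0102), and with the adjusted p alone 1 rose and 8 fell (all genes: 12.1% higher, 14.1% lower), with a median of −0.24. The count of 2 was 1 without KO/Y array 3 or without +Tx array 1, and 3 without KO/Y array 1 or without +Tx array 2.

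At the adjusted p more naive genes fell than rose in each of the 3 comparisons, as was the case over all genes. Of the 12 tested, 3 rose and 9 fell past the adjusted p in KO/Y over −Tx cells (all genes: 20.5% higher, 26.4% lower), with *Gbx2*, a homeobox gene (log2 fold change −2.46, adjusted p = 2.81e-07), and *Tfcp2l1*, a naive transcription factor (−1.19, adjusted p = 1.55e-06), over 2-fold lower and a median of −0.43. The +Tx cells had 2 that rose and 7 that fell over −Tx cells (all genes: 11.9% higher, 14.7% lower), with *Dppa3*, a maternal and germ cell factor (−1.64, adjusted p = 6.85e-06), and *Tfcp2l1* (−1.11, adjusted p = 6.64e-06) over 2-fold lower and a median of −0.37. *Klf4* and *Tbx3* were the 2 that rose, by 0.58 (adjusted p = 0.000334) and 0.75 (adjusted p = 0.000192), and they rose in KO/Y over −Tx cells too, by 0.66 (adjusted p = 4.54e-05) and 0.83 (adjusted p = 3.15e-05). Between KO/Y and +Tx cells 1 rose and 4 fell past the adjusted p (all genes: 12.1% higher, 14.1% lower), and 1 gene passed the 2-fold limit in each direction, with *Dppa3* over 2-fold higher (1.16, adjusted p = 5.8e-05) and *Gbx2* over 2-fold lower (−1.81, adjusted p = 8.03e-06). *Dppa3* lost this call with normexp correction. In a test against a fold of 2, *Dppa3* was called in +Tx over −Tx cells and *Gbx2* in both comparisons of KO/Y cells, 1 naive gene each.

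Genes of Fgf signalling, the pathway that *Fgf5* feeds, were mostly lower in KO/Y cells. Of the 13 tested, 2 rose and 8 fell past the adjusted p in KO/Y over −Tx cells (all genes: 20.5% higher, 26.4% lower), with a median of −0.27. *Egr1*, an immediate early gene downstream of Erk, was 2.44-fold lower (log2 fold change −1.29, adjusted p = 1.89e-06), and the feedback inhibitor *Spry4* read −0.59 (adjusted p = 0.000424). *Fgfr4*, a receptor, rose by 0.69 (adjusted p = 0.00664). In +Tx over −Tx cells 3 rose, *Egr1* (0.54, adjusted p = 0.000793), *Spry4* (0.39, adjusted p = 0.00912) and the Ets factor gene *Etv4* (0.30, adjusted p = 0.0449), and 2 fell (all genes: 11.9% higher, 14.7% lower), with a median of 0.13. Between KO/Y and +Tx cells 1 rose and 7 fell past the adjusted p (all genes: 12.1% higher, 14.1% lower), with a median of −0.27, and *Egr1* (−1.83, adjusted p = 2.04e-06) was 3.56-fold lower.

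**Figure D4:**
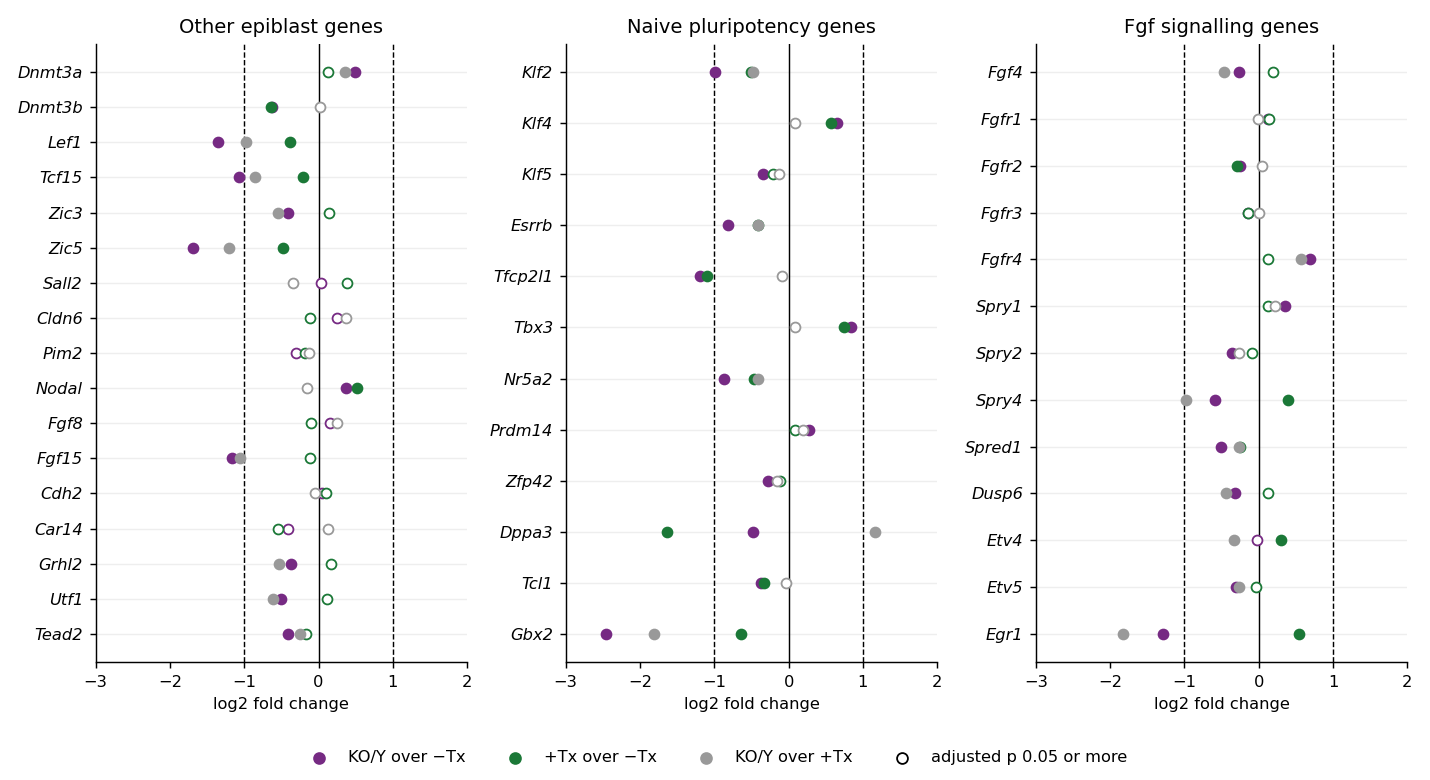
Log2 fold change of 17 other epiblast genes, 12 naive pluripotency genes and 13 genes of Fgf signalling in the 3 comparisons, with open circles at an adjusted p of 0.05 or more and dashed lines at 2-fold. Among the epiblast genes, *Zic5*, *Lef1*, *Fgf15* and *Tcf15* lie beyond the line at 2-fold lower for KO/Y over −Tx cells, and none lies beyond the line at 2-fold higher.

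Family relatives of the 7 genes did not all move with them. Of 18 relatives 12 were tested, and *Otx1*, *Crx*, *Pou3f2*, *Pou3f3*, *Pou3f4* and *Zic4* were too dim, so *Otx2* and *Pou3f1* had no tested relative of their subfamily. Over 2-fold higher in KO/Y than in −Tx cells were 2, *Foxd1* (log2 fold change 1.10, adjusted p = 0.00239) and *Foxd2* (1.04, adjusted p = 0.0031, well above background on 2 of the 3 −Tx arrays), against 0.011 for *Foxd3*, and 1 was lower, *Zic5* (all genes: 4.72% higher, 2.84% lower). With normexp correction, with slide as a block and in a test against a fold of 2, neither *Foxd1* nor *Foxd2* was called and *Zic5* was the 1 call left. *Foxd1* also lost its call without KO/Y array 1, and *Foxd2* without KO/Y array 3 or −Tx array 1, with quantile normalization and with the stricter filter on dim probes. *Zic1* rose by 0.83 (adjusted p = 0.000117), where *Zic2* fell by 0.73, and the SoxC gene *Sox11* fell by 0.88 (adjusted p = 2.36e-05), where *Sox4* read −0.029. *Sox2* fell by 0.52 (adjusted p = 0.000623), and *Sox1* read 0.096 (adjusted p = 0.507). In +Tx over −Tx cells no relative passed the 2-fold limit by limma, and 2 rose and 2 fell past the adjusted p (all genes: 11.9% higher, 14.7% lower). *Sox3* rose by 0.27 there, while *Sox2* read −0.22 (adjusted p = 0.0642).

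Of neuroectoderm genes, which *Otx2*, *Zic2*, *Sox3* and *Sox4* also mark in later cells, 9 of 10 were tested. *Nes*, *Tubb3* and *Zic1* rose in +Tx over −Tx cells, by 0.59 (adjusted p = 0.000362), 0.68 (adjusted p = 0.000178) and 0.52 (adjusted p = 0.00429), and none fell past the adjusted p (all genes: 11.9% higher, 14.7% lower). In KO/Y over −Tx cells the same 3 rose, by 0.43 (adjusted p = 0.000539), 0.57 (adjusted p = 0.000122) and 0.83 (adjusted p = 0.000117), while *Pax3* (−0.92, adjusted p = 0.0046) and *Pax6* (at least 2.15-fold lower, adjusted p = 4.65e-06) fell (all genes: 20.5% higher, 26.4% lower). The list summed to 27.1 to 28.2 on KO/Y, 28.5 to 30.2 on +Tx and 18.7 to 19.7 on −Tx arrays, and *Pax6* was not well above background on any KO/Y array. *Neurog2* was on no array well above background, and the part of such cells in the rise of *Otx2* was not tested.

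The nearest patterns over the 9 arrays were sought among 15340 named genes, as the root mean square difference of log2 values after each gene was centred on its own mean. The rule asked for these only for genes past the 2-fold limit, of which there were none, so the ones given here were chosen after the values were seen. Nearest to *Otx2* were *Elovl6*, a fatty acid elongase gene (0.044), *Lox*, for lysyl oxidase (0.048), and *Lrrc32* (0.049), where *Otx2* itself had an SD of 0.33 over the arrays. *Lox* is also in the fibroblast list. Nearest to *Pou3f1* were *Oplah*, for 5-oxoprolinase (0.072), *Prmt7*, for an arginine methyltransferase (0.084), and *Pltp*, for a phospholipid transfer protein (0.086). *Fgf5* was nearest to *Pikfyve* (0.10), a phosphoinositide kinase gene, *Foxd3* to *Acp6* (0.064), an acid phosphatase gene, and *Sox3* to *Itpk1* (0.068), an inositol kinase gene. The nearest pair within the 7 genes was *Sox3* and *Sox4* at 0.17, followed by *Sox3* and *Foxd3* at 0.18.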

How the data were processed

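RNA of 3 groups of ES cells was measured on 9 one-colour arrays. Per the file headers, the deposited intensity values came from Agilent Feature Extraction 10.7.3.1 and are linear Cy3 values per spot, with the background subtracted within the array. The table of the series that the authors deposited holds a linear signal column per group, made with NIA Array Analysis Software with settings not given in the sources used here, and was used as an alternative with values and no test. The study's text describes biological triplicates. Its methods name fewer independent pairs of floxed and KO/Y lines than the 3 arrays of a group, so arrays of a group may share a line. Which array holds which replicate is not given in the sources used here, so arrays are numbered by slide position.

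The log2 of the processed intensity was taken and the 75th percentile of each array subtracted (R 4.3.3, data.table version 1.17.8). Outlier spots were left out and spots of a probe averaged. A probe was kept if all arrays of at least 1 group had it well above background, and the brightest of several probes was taken for a gene. The 22441 genes were tested with limma 3.58.1 (lmFit, eBayes) in 1 fit of 9 arrays, and each of 31188 probes in a second fit, with Benjamini-Hochberg adjustment over all genes or probes. Calls took an adjusted p under 0.05 and over 2-fold, the limits that the study states, and counts with the adjusted p alone are given beside them. The fit's p-values rest on 3 arrays per group, whose number limits the precision. The script was tested on simulated data.

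The 7 genes and all gene lists were chosen with earlier results of these data known, and no list was tested as a set. The naming rule took the 7 genes, *Nr0b1*, up to 3 called genes per list and comparison with the largest change, and nearest patterns for called members. Other genes were named after their values were seen. Probe positions are those of the array annotation (mm9) and promoter windows those of RefSeq (GRCm38.p6), and no position was converted. Alternatives changed 1 choice at a time: quantile normalization, normexp correction (offset 50), median scaling, no filter or a stricter filter on dim probes, slide as a block, arrays of the shared slide, only the 6 arrays compared, the mean of a gene's probes, a variance trend, a test against a fold of 2, outlier spots kept, and each array left out.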

Additional observations from a re-analysis of the deposited data

How the results depend on the processing

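None of the 7 genes passed the 2-fold limit in any alternative, and the calls of *Otx2* and *Pou3f1* against −Tx cells were kept in the 19 (KO/Y) and 20 (+Tx) of them that tested single genes for any difference. In the authors' table, which has no test, the 21 differences of the 7 genes lay within 0.003 of the fitted ones on the log2 scale. With slide as a block, 2 instead of 5 of the 7 genes passed the adjusted p in KO/Y over −Tx cells, and on the shared slide 2 instead of 4 in KO/Y over +Tx cells. Of the other epiblast genes, 1 instead of 2 was called in KO/Y over +Tx cells with normexp correction, under the slide block and on the shared slide, and 0 with a test against a fold of 2, which left 1 instead of 4 in KO/Y over −Tx cells. With each array left out the KO/Y over +Tx count lay between 1 and 3. No slide held both KO/Y and −Tx arrays, so this comparison has no value within a slide. Without the filter on dim probes 1 instead of 0 was called in +Tx over −Tx cells. The sign changed for differences near 0 that had not passed the adjusted p. With quantile normalization the KO/Y over −Tx median of the 7 genes was 0.017, *Sox4* was 0.029 there and *Otx2* was 0.005 in KO/Y over +Tx cells. With the mean of a gene's probes these 3 values were 0.011, 0.027 and 0.028. *Pou3f1* in KO/Y over +Tx cells was 0.004 with scaling by the median and 0.041 both under the slide block and within the shared slide. With slide as a block, *Foxd3* was −0.136 and *Sox4* 0.041 in KO/Y over −Tx cells. With each array left out, *Otx2* ranged from −0.041 to 0.009 and *Pou3f1* from −0.064 to 0.041 in KO/Y over +Tx cells, *Foxd3* from −0.012 to 0.055 in KO/Y over −Tx cells, and *Zic2* from −0.274 to 0.052 in +Tx over −Tx cells. The cause of these changes was not tested. Over all genes, calls higher and lower in KO/Y over −Tx cells were 1059 and 637, against 416 and 267 with normexp correction, 586 and 452 with the stricter filter on dim probes, and 474 and 192 with a test against a fold of 2. In +Tx over −Tx cells they were 392 and 171, and under these alternatives 154 and 52, 209 and 93, and 171 and 31. In KO/Y over +Tx cells they were 532 and 235, and 195 and 61, 229 and 149, and 144 and 43. No paired analysis was possible because the arrays carry no replicate numbers that pair them across groups. *Fgf5* had low processed intensities, and its KO/Y over −Tx difference was 0.50 with normexp correction, which adds an offset, and 0.80 without. The part of the offset in this change was not tested.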
